A study of Mus musculus with 12 samples.

Results

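The genes described here are the 10 named genes of MHC class I antigen presentation and peptide loading: B2m, H2-K1, H2-D1, H2-T23, Tap1, Tap2, Tapbp, Tapbpl, Erap1 and Nlrc5. They were chosen by name for their function, with earlier results of these data known, and the rule uses no measured value. All 10 were found among the 22243 genes of the RNA-seq table, and all 10 were among the 8780 whose mean level reached 1 TPM (transcript abundance scaled to length and library). The libraries came from bone-marrow macrophages of C57Bl/6 mice, grown with M-CSF-containing conditioned medium and then M1-activated by 16 h of IFN-γ at 100 U/ml followed by 6 h of LPS at 100 ng/ml. The labels give no age. One group was LysMCre/ErbB4-floxxed (ErbB4myeKO, n = 6 mice) and the other was ErbB4-floxxed without the Cre (ErbB4FF, n = 6 mice), with 1 mouse of each genotype from each of 6 litters. Both groups carried the floxed Erbb4 alleles and both received IFN-γ and LPS, so no library shows the unstimulated level of these genes. LysMCre drives recombination from the lysozyme M locus in myeloid cells, ErbB4myeKO mice differed from their littermates also in carrying the Cre, and the sex of each mouse is not on the labels, while the study's methods state that both sexes were used.

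MHC class I molecules display peptides from the inside of the cell to CD8+ T cells and NK cells. Proteasome products enter the endoplasmic reticulum through the TAP transporter, are trimmed by aminopeptidases there, and are loaded onto a heavy chain paired with β2-microglobulin with the help of tapasin. In macrophages IFN-γ is a strong inducer of this pathway, acting through IRF1 and the class I transactivator NLRC5, which acts at a conserved upstream module of class I promoters.

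On the GRCm38 (mm10) assembly with GENCODE M21 annotation, 6 of the 10 genes lay in the MHC region of chromosome 17. Tapbp spanned chr17:33915899-33929292 and H2-K1 chr17:33996017-34000347. Tap1 spanned chr17:34187553-34197225 and Tap2 chr17:34203527-34216321. H2-D1 spanned chr17:35262730-35267499 and H2-T23 chr17:36029773-36032855. The others were B2m at chr2:122147686-122153083, Tapbpl at chr6:125223933-125231860, Nlrc5 at chr8:94434356-94527272 and Erap1 at chr13:74639568-74693201. The table held 1 principal transcript for each gene except Nlrc5, which had 2.

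The promoters of the genes with the highest levels, and of Tap1, are shown because class I genes are known to share upstream elements. The sequences are from RefSeq (GRCm38.p6), which had an entry for 7 of the 10 genes and none for Tap2, Tapbpl and Nlrc5. Each run below is the 250 bases before the RefSeq start on the gene's strand, at chr2:122147437-122147686 (plus strand) for B2m, chr17:34000348-34000597 (minus strand) for H2-K1, chr17:35262844-35263093 (plus strand) for H2-D1 and chr17:34187306-34187555 (plus strand) for Tap1. Capitals mark matches, on either strand, to GGGANNNNCC (a κB-type site), GAANNGAAA and GAAANNGAAA (interferon-response type sites), TGACG (a CRE half-site) and CCAAT (an NF-Y type box). The GGGANNNNCC matches on the opposite strands overlap each other.
B2m: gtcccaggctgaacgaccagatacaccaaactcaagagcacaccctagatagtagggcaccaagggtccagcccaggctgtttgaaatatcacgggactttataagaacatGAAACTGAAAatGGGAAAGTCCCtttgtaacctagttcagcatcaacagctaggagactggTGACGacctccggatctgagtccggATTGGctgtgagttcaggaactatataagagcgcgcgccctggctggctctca
H2-K1: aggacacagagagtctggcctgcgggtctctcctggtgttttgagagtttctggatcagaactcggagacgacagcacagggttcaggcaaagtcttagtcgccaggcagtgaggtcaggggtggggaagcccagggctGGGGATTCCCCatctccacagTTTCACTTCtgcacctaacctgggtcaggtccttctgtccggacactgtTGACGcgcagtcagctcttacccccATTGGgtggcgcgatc
H2-D1: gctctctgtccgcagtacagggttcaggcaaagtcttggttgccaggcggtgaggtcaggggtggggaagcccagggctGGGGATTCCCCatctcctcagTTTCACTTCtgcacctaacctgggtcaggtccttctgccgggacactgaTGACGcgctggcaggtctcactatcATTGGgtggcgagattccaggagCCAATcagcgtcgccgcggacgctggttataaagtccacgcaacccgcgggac
Tap1: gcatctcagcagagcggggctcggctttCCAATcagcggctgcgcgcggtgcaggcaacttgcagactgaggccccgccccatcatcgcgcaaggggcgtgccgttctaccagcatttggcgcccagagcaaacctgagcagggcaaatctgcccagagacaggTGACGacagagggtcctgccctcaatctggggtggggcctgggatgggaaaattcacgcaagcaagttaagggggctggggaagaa

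H2-K1 and H2-D1 carried GGGANNNNCC, GAANNGAAA, TGACG and CCAAT in the same order, H2-D1 with a second CCAAT, and once aligned their windows were identical at 166 of 190 bases (87.4%). In GENCODE M21 some genes begin further upstream, so the windows of H2-D1, Tapbp and Erap1 lie wholly, and that of H2-T23 in 154 of 250 bases, within the annotated gene. B2m had GAAANNGAAA just before the κB-type match, then the CRE half-site and an inverted CCAAT, and Tap1 had only the CCAAT and the CRE half-site. Over the 7 windows, GAANNGAAA was found in 2, GAAANNGAAA in 2 (B2m and H2-T23), GGGANNNNCC in 3, TGACG in 4 and CCAAT in 6, with no match to any of them in that of Erap1. Among all 32851 promoter windows of the same length the shares were 6.31%, 2.98%, 17.6%, 17.8% and 33.8%. The motifs were chosen after the 7 sequences were seen, so setting the counts beside these shares is a description and not a test. The start of Tap1 lay 226 bases from that of Psmb9, an immunoproteasome subunit gene transcribed in the opposite direction. These matches describe the letters in the windows, and binding was not measured.

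The 7 macrophage markers were present in both groups, with summed levels of 2602 to 6223 TPM in ErbB4myeKO and 2708 to 7347 TPM in ErbB4FF. Their ratios lay above 0 for 4 and below 0 for 3 (median 0.01). The markers of all lists with an unadjusted limma p under 0.05 were Fcgr1 of the macrophage list (mean log2 ratio -0.86 ± 0.74, lower in ErbB4myeKO in 6 of 6 litters), Camp of the neutrophil list (0.45 ± 0.41, higher in 6 of 6) and Xcr1 of the dendritic-cell list (0.63 ± 0.66, higher in 5 of 6), each with SD, n = 6 and a limma adjusted p of 0.603. Mertk of the macrophage list went the other way from Fcgr1, higher in 6 of 6 litters. Its mean log2 ratio was 0.14 ± 0.19 (SD, n = 6; exact two-sided permutation p = 0.0312; limma adjusted p = 0.64). The 5 tested neutrophil genes had ratios above 0 for 3 and below 0 for 2. Neutrophil genes summed to 41.2 to 375 TPM and 42.3 to 186 TPM, most of it S100a8 and S100a9, and the highest sum was in the ErbB4myeKO library of litter 6. Dendritic-cell genes summed to 10.1 to 33.8 TPM and 5.12 to 25.5 TPM, with Cd209a and Siglech at 0 in all 12 libraries. Lymphocyte genes reached at most 2.54 TPM and erythroid genes at most 0.981 TPM in sum, the latter with Hbb-bs and Alas2 at 0 throughout, and stromal genes summed to 9.28 to 103 TPM and 15.9 to 97.9 TPM. The part of these cells in the values below was not tested, and in bulk RNA fewer cells of a type and less RNA per cell cannot be told apart. Erbb4 itself was at 0.583 ± 0.242 TPM in ErbB4myeKO and 0.450 ± 0.132 TPM in ErbB4FF (SD, n = 6), under the minimum level for testing and with a mean that was not lower in ErbB4myeKO, a measure of the whole transcript that does not separate the floxed part. The depth of the libraries is unknown from TPM values.

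The class I genes spanned a 662-fold range of levels, from B2m, the shared light chain and the third most abundant of the 8780 genes, down to Tap2. TPM is scaled to transcript length, so levels of different genes can be set side by side, for the transcripts that the table holds. These carried 59.0% to 74.7% of the TPM of a library, and for H2-K1 they were 1 of 16 annotated transcripts, for Tapbp 1 of 9 and for Tap1 1 of 7, against 1 of 1 for B2m and Tapbpl, so TPM given to other isoforms is missing from the order and the folds. The order of mean TPM was B2m, H2-D1, H2-K1, H2-T23, Tapbp, Tap1, Nlrc5, Tapbpl, Erap1 and Tap2. B2m was 3.61-fold above H2-D1 and the mean B2m level was 1.87 times the summed means of H2-K1 and H2-D1. Of the 9 pairs of neighbours in this order, 7 were in the same order in 6 of 6 litters (two-sided exact permutation p = 0.0312 each, the smallest p that 6 litters allow, adjusted p = 0.0402 over the 9 pairs). The pairs and their direction came from the mean TPM of these same libraries, so the p-values are not independent support for the order. The neighbours H2-D1 and H2-K1 did not pass this test, at 1.10-fold, a log2 difference of 0.13 ± 0.12 (SD, n = 6) and 5 of 6 litters in order (exact permutation, adjusted p = 0.105), and nor did Nlrc5 and Tapbpl (4 of 6 litters, adjusted p = 0.938). The mean log2 difference of Nlrc5 and Tapbpl was -0.07, against the order of mean TPM. In the plot of levels by gene the points of the 2 genotypes lie among each other for every gene. The share of all genes tested with such overlap was not counted, so this only describes the 10 genes.

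**Figure D1:**
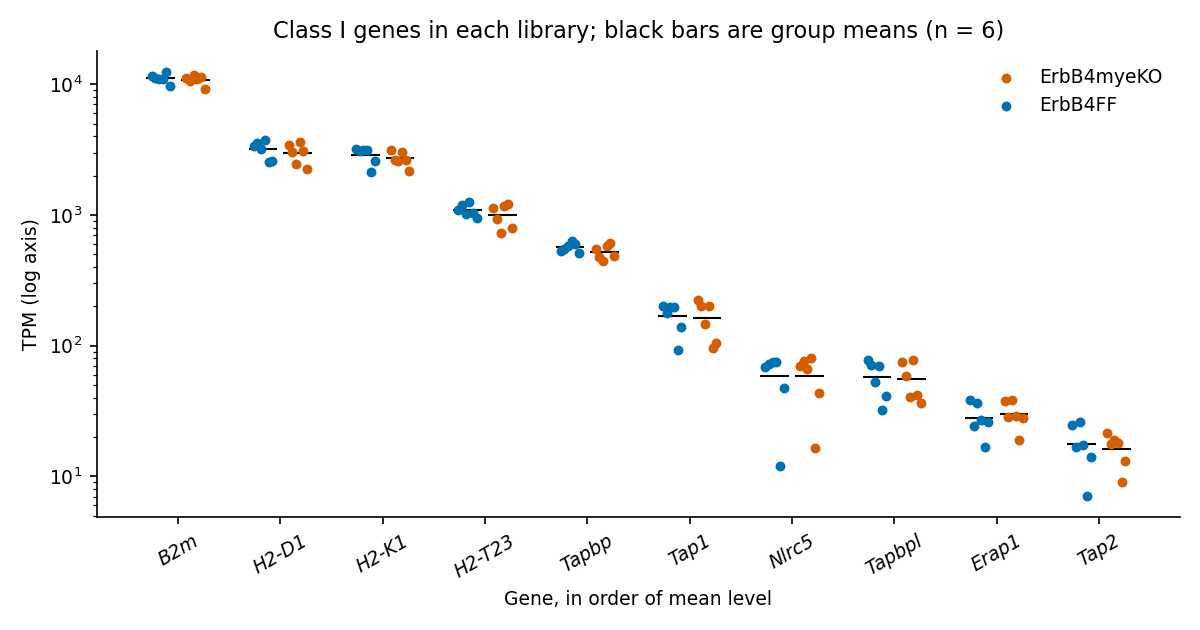
TPM on a log axis of the 10 class I genes in each of the 12 libraries, 6 of each genotype, with genes in order of their mean and black bars at the group means. Levels run from B2m at 9115 to 12409 TPM down to Tap2 at 7.09 to 26.0 TPM, the groups overlap for every gene, and within each group the points stand in the order of litters 1 to 6 from left to right.

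None of the 10 genes differed between the genotypes at an adjusted p under 0.05, as none of the 8780 genes did (0%). The mean ratios between littermates ranged from 0.902-fold for H2-T23 to 1.08-fold for Erap1, with limma adjusted p from 0.643 to 0.884. At an unadjusted p under 0.05, 0 of the 10 passed in either direction, against 3.83% of all genes tested that were higher in ErbB4myeKO and 4.38% that were lower. The mean ratios of 8 genes lay below 0 on the log2 scale and those of Nlrc5 and Erap1 lay above it, with a median of -0.06 over the 10 genes and -0.00068 over all genes tested. Without litter 3 the number below 0 was 5 and the median -0.02, and without litter 5 they were 9 and -0.14. No gene went the same way in all 6 litters, which is a description given without the share over all genes tested. The 95% intervals of the 10 estimates lay between -0.38 and 0.26 on the log2 scale. The SD of the ratio between litters had a median of 0.23 for the 10 genes and 0.34 for all genes tested. The same values are shown gene by gene in the plot of ratios between littermates.

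**Figure D2:**
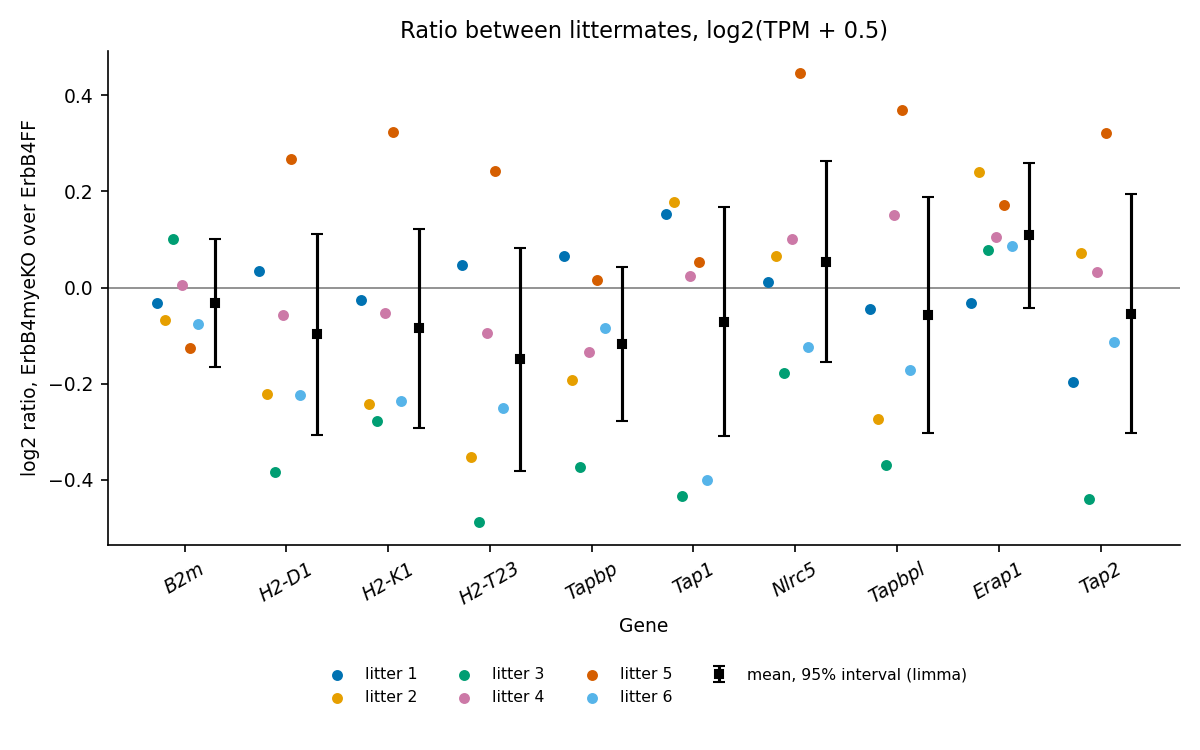
Within-litter log2 ratios, ErbB4myeKO over ErbB4FF, of log2(TPM + 0.5) for each of the 10 class I genes, coloured by litter, with black squares and bars for the mean and its 95% interval from limma (n = 6 litters). Every interval includes 0, litter 5 gives the highest ratio for H2-D1, H2-K1, H2-T23, Nlrc5, Tapbpl and Tap2, and litter 3 gives the lowest for every gene but B2m and Erap1.

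B2m and the classical heavy chains were the most abundant of the genes. Their mean ratios were 0.978-fold for B2m, 0.943-fold for H2-K1 and 0.935-fold for H2-D1, and equality of level was not tested. B2m encodes β2-microglobulin, which pairs with every class I heavy chain. It was measured at 9115, 11131 and 11729 TPM (lowest, median and highest library) in ErbB4myeKO and at 9604, 11022 and 12409 TPM in ErbB4FF. The lowest library of either group came from litter 6 and the groups overlapped over most of their range. The ratio was 0.978-fold (95% interval 0.892 to 1.07), with 4 of 6 litters lower, a mean log2 ratio of -0.03 ± 0.08 (SD, n = 6) and an adjusted p of 0.873 in limma. This was the smallest spread between litters among the 10 genes.

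H2-K1, a classical heavy chain presenting peptides to CD8+ T cells, was at 2183, 2631 and 3164 TPM in ErbB4myeKO and at 2111, 3108 and 3220.1 TPM in ErbB4FF. The ErbB4FF libraries of litters 1 to 4 lay close together between 3097 and 3220.1 TPM, while those of litters 5 and 6 were lower, and the groups overlapped. The ErbB4myeKO animal was lower in 5 of 6 litters and higher in litter 5, where the log2 ratio was 0.32. The mean log2 ratio was -0.09 ± 0.23 (SD, n = 6; 95% interval -0.29 to 0.12; limma adjusted p = 0.770).

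H2-D1, the second classical heavy chain measured, was at 2225, 3054 and 3609 TPM in ErbB4myeKO and at 2552, 3275 and 3755 TPM in ErbB4FF. Litter 4 held the highest library of each group, and litter 6 the lowest ErbB4myeKO one. The mean log2 ratio was -0.10 ± 0.23 (SD, n = 6; 95% interval -0.31 to 0.11; limma adjusted p = 0.742), and 4 of 6 litters were lower.

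H2-T23 encodes Qa-1, a non-classical class I molecule that is read by inhibitory receptors on NK cells. Its levels were 729, 1033 and 1212 TPM in ErbB4myeKO and 952, 1061 and 1244 TPM in ErbB4FF. The lowest 3 of the 12 libraries were the ErbB4myeKO ones of litters 3, 6 and 2, while litters 1 and 5 were higher in ErbB4myeKO and the groups overlapped. It had the ratio furthest from 0 of the 10 genes, -0.15 ± 0.27 (SD, n = 6; 95% interval -0.38 to 0.08), at a limma adjusted p of 0.663. Of the 31-base words of its transcript, 49.3% also occurred in transcripts of other genes, and 25.3% of all its words occurred in the pseudogene H2-T-ps, so the assignment of its reads is less certain than that of B2m, which shared none. The share was 27.7% for H2-D1 and 23.3% for H2-K1, partly with each other (12.9% and 16.9%).

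The heavy chain ratios depended on single litters. Without litter 3, H2-K1 was at -0.05, H2-D1 at -0.04 and H2-T23 at -0.08. Without litter 5, H2-K1 was at -0.17 (SE 0.07; lower in 5 of 5 litters; unadjusted p = 0.0484) and H2-T23 at -0.23 (SE 0.09; lower in 4 of 5; unadjusted p = 0.0422), both with a limma adjusted p of 0.5005. H2-D1 was then at -0.17 (unadjusted p = 0.0717 in limma). These were 2 of the 10 genes at an unadjusted p under 0.05 and lower in ErbB4myeKO, where 5.56% of the 8710 genes tested without litter 5 were.

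The TAP transporter subunits were unequal in level, with Tap1 9.59-fold above Tap2 (7.60 to 13.0-fold over the 12 libraries). Tap1 was at 95.9, 173 and 224 TPM in ErbB4myeKO and at 92.4, 187 and 202 TPM in ErbB4FF. Both libraries of litters 5 and 6 were low, between 92.4 and 139 TPM, and the groups overlapped throughout. The ErbB4myeKO animal was higher in 4 of 6 litters, yet litters 3 and 6 were lower by enough to put the mean log2 ratio at -0.07 ± 0.27 (SD, n = 6; 95% interval -0.31 to 0.17; limma adjusted p = 0.839). Tap2 was at 8.98, 17.7 and 21.4 TPM in ErbB4myeKO and at 7.09, 17.1 and 26.0 TPM in ErbB4FF. Its lowest values were again those of litters 5 and 6. Its litters split 3 to 3, with a mean log2 ratio of -0.05 ± 0.26 (SD, n = 6; limma adjusted p = 0.884). Without litter 3 both turned sign, to 0.00122 for Tap1 and 0.0227 for Tap2.

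Tapbp, the bridge between TAP and the heavy chain, was 10.01-fold above its relative Tapbpl, a peptide editor that works outside the loading complex. Tapbp was at 443, 518 and 605 TPM in ErbB4myeKO and at 514, 561 and 631 TPM in ErbB4FF. The 3 lowest libraries were ErbB4myeKO ones and the groups overlapped above them. Its mean log2 ratio was -0.12 ± 0.16 (SD, n = 6; 95% interval -0.28 to 0.04; limma adjusted p = 0.643), lower in 4 of 6 litters, and it was -0.07 without litter 3. Tapbpl was at 36.4, 50.3 and 77.5 TPM in ErbB4myeKO and at 32.0, 61.2 and 77.5 TPM in ErbB4FF, so that the groups shared nearly the same range. Its mean log2 ratio was -0.06 ± 0.28 (SD, n = 6; limma adjusted p = 0.880), which turned to 0.00601 without litter 3. In the Tapbp transcript 23.9% of 31-base words occurred in other genes, and 20.9% of all its words occurred in Gm19412.

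Erap1, the aminopeptidase that trims peptides in the endoplasmic reticulum, was the gene whose ratio lay furthest above 0. It was at 19.0, 28.8 and 38.3 TPM in ErbB4myeKO and at 16.8, 26.6 and 38.4 TPM in ErbB4FF. The lowest library of either group was that of litter 5, and the ranges of the groups nearly coincided. The ErbB4myeKO animal was higher in 5 of 6 litters by a mean log2 ratio of 0.11 ± 0.09 (SD, n = 6; 95% interval -0.04 to 0.26), with a limma adjusted p of 0.644 and an exact two-sided permutation p of 0.0625.

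Nlrc5, the transactivator of class I genes, was at 16.4, 68.0 and 80.5 TPM in ErbB4myeKO and at 11.9, 70.8 and 75.2 TPM in ErbB4FF. Outside litters 5 and 6 the 8 libraries stood between 66.4 and 80.5 TPM, and the groups overlapped. The mean log2 ratio was 0.05 ± 0.22 (SD, n = 6; 95% interval -0.16 to 0.26; limma adjusted p = 0.864), higher in 4 of 6 litters. Without litter 5 it was -0.02.

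The levels of most of the genes varied more with the litter than with the genotype. Same-numbered mice, taken as littermates, also share a batch letter in the labels, and the part of batch in the litter shares was not tested. Litter, with 5 degrees of freedom against 1 for genotype, accounted for 59.9% (Tapbp) to 98.6% (Nlrc5) of the variance of log2(TPM + 0.5) over the 12 libraries, with a median of 89.8% over the 10 genes and 78.1% over all genes tested. Genotype accounted for 16.0% in Tapbp, 10.4% in H2-T23 and less than that in each of the others, with medians of 2.08% and 2.49%. Per degree of freedom the litter share was 12.0% in Tapbp, below its genotype share, 12.4% in H2-T23, and 13.9% to 19.7% in the others. The direction of the ratio also went with the litter. In litter 5, 9 of the 10 genes were higher in the ErbB4myeKO animal (median log2 ratio 0.25), B2m being the exception, and in litter 6, 9 of the 10 were lower (median -0.15), Erap1 being the exception. In litter 3, 8 were lower (median -0.37). Litters 1, 2 and 4 were divided, with 5, 6 and 4 genes lower and medians of -0.01, -0.13 and 0.02. The corresponding medians over all genes tested lay between -0.02 and 0.02 in every litter.

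Litter 5 stood apart in both of its libraries. Among all genes tested, those of at least 5000 nt differed from the other litters by a median of -0.71 on the log2 scale, and those under 1500 nt by a median of 0.72. Among the class I genes, Nlrc5, with the longest transcript (7578 nt), was 4.62-fold lower in litter 5 than in the mean of the other litters, and Tap2 (3442 nt) was 2.22-fold and Tap1 (2953 nt) 1.86-fold lower. Erap1 (5644 nt) was 1.71-fold lower, close to the median of its length class. B2m (860 nt) was 1.11-fold, H2-T23 (1472 nt) 1.10-fold and Tapbp (2898 nt) 1.13-fold higher. H2-K1, Tapbpl, Tap1, Tap2 and Nlrc5 thus lay below the middle 50% of all genes of their length class, and B2m and H2-T23 also lay below it among the short genes. The part of transcript length, RNA quality or batch in these levels was not tested. Both littermates shared the shift. Without litter 5 the mean log2 ratios of the genes not given above were -0.0136 for B2m, -0.14 for Tapbp and -0.14 for Tapbpl, -0.10 for Tap1, -0.13 for Tap2 and 0.10 for Erap1, with a limma adjusted p of 0.538 or more (n = 5 litters).

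**Figure D3:**
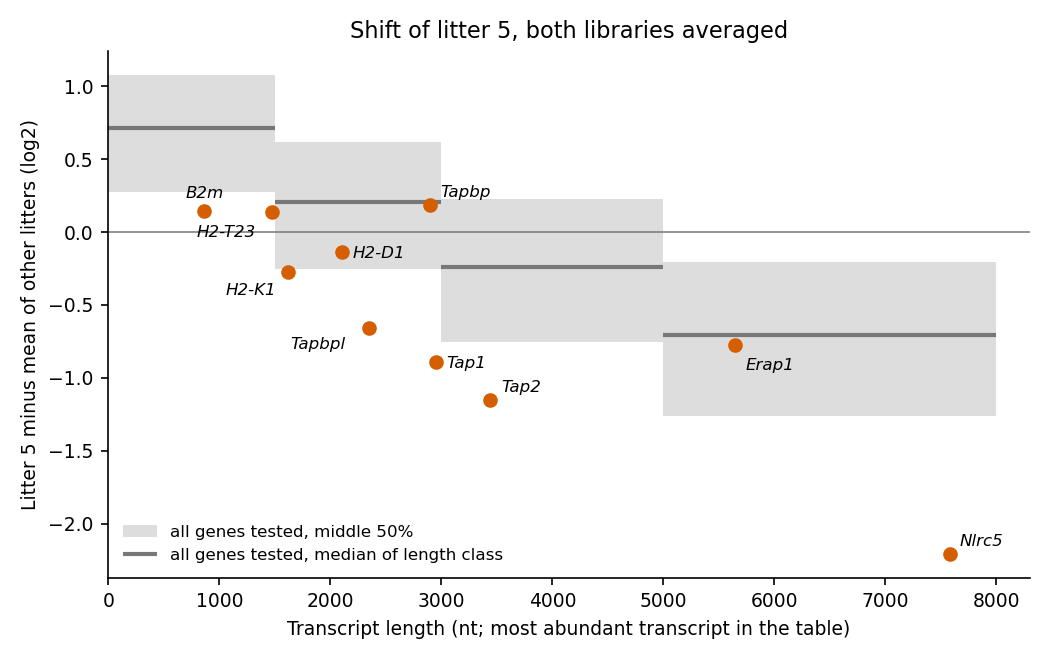
Mean level in litter 5 minus the mean level in the other 5 litters, in log2(TPM + 0.5), against transcript length for the 10 class I genes (orange), with the median and middle 50% of all genes tested in 4 length classes (grey; the last class, of 5000 nt or more, also holds longer transcripts than the axis shows). Values run from 0.18 for Tapbp to -2.21 for Nlrc5, and all but H2-D1, Tapbp and Erap1 lie below the grey range of their class.

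Nlrc5 was the only one of the genes with 2 transcripts in the table, and they behaved differently in litter 5. The longer (ENSMUST00000211816, 7578 nt) was at 1.26 TPM in the ErbB4myeKO and 0.745 TPM in the ErbB4FF library of litter 5, against 24.6 to 57.1 TPM in the other 10 libraries. The shorter (ENSMUST00000053085, 6945 nt) was at 15.1 and 11.1 TPM there, against 14.3 to 30.4 TPM. Nearly all words of either transcript also occur in another annotated Nlrc5 transcript, so their split is an estimate. Neither differed by genotype, with mean log2 ratios of 0.18 ± 0.21 (exact two-sided permutation p = 0.125, n = 6) for the longer and -0.19 ± 0.43 (exact permutation p = 0.344, n = 6) for the shorter.

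Across litters the ratio of H2-K1 went together with those of the other heavy chains. This relation was examined after the values were seen, over 9 genes and 6 litters, with exact permutation over 720 orders. Pearson's r with H2-K1 was 0.967 for H2-D1 (exact permutation p = 0.00278, adjusted p = 0.0125; Spearman's rho 0.943, adjusted p = 0.05) and 0.940 for H2-T23 (p = 0.00139, adjusted p = 0.0125; rho 1, adjusted p = 0.0250; all by exact permutation). Without the 2 litters farthest from the median of H2-K1, r was 0.980 and 0.947. The ratio of Tapbpl was also related to it (r = 0.936, exact permutation adjusted p = 0.0208; rho 0.943, adjusted p = 0.05; r = 0.827 without those 2 litters). For Nlrc5 r went by this step from 0.918 to 0.445, and its adjusted p over all 6 litters was 0.0563 by exact permutation. The step leaves few litters over a narrowed range of H2-K1, so r without those 2 litters is only a description. The other 5 genes had an adjusted p of 0.210 or more for r by exact permutation. Without those 2 litters r went from 0.721 to -0.364 for Tap2, from -0.569 to 0.859 for B2m and from 0.0587 to -0.713 for Erap1, so these turned sign. It went from 0.678 to 0.620 for Tapbp (rho 0.886, exact permutation adjusted p = 0.075) and from 0.477 to 0.431 for Tap1. Among the 8779 other genes tested, 0.159% had an r with H2-K1 at or above that of H2-D1, 0.558% at or above that of H2-T23 and 0.672% at or above that of Tapbpl. The 3 heavy chains share libraries, H2-K1 and H2-D1 also share part of their sequence, and the weight of either was not tested.

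A further 5 lists of class I pathway genes, 51 genes in all, had 41 genes that reached the minimum level. None of the 41 had an adjusted p under 0.05. At an unadjusted p under 0.05, 2 were higher and 4 were lower in ErbB4myeKO, set against the 3.83% and 4.38% of all genes. The plot of genotype estimates by list shows where they stand.

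**Figure D4:**
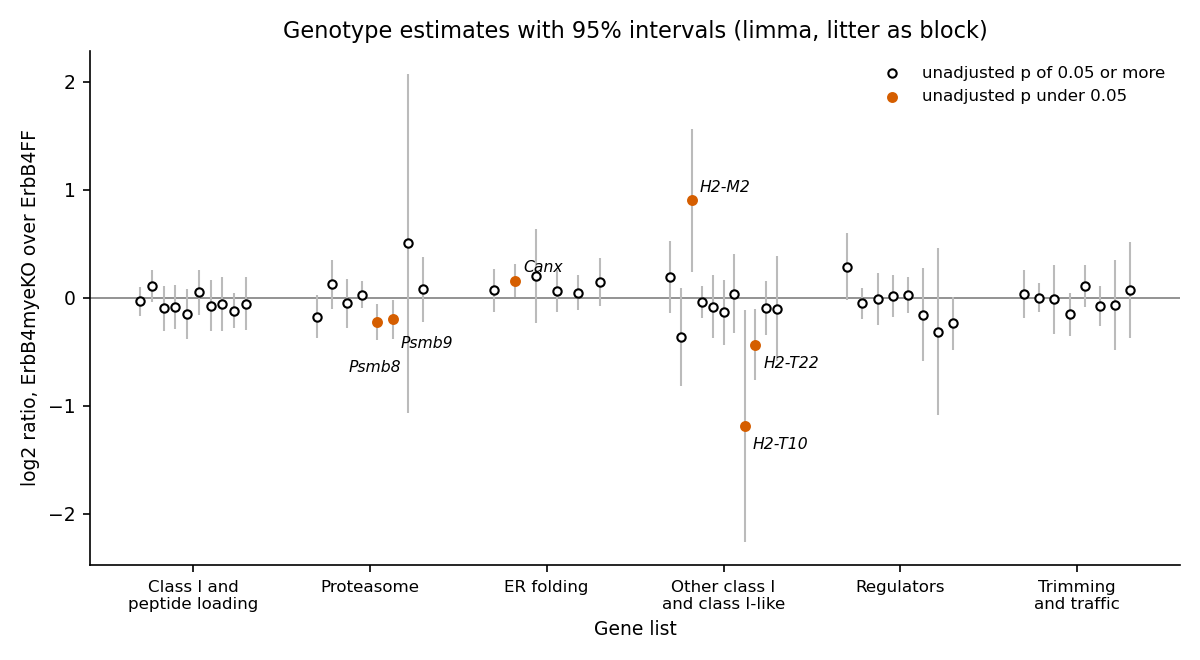
Mean log2 ratio, ErbB4myeKO over ErbB4FF, with its 95% interval from limma for the 10 class I genes and the 41 tested genes of 5 pathway lists, in alphabetical order within a list. Filled points have an unadjusted p under 0.05 (Psmb8, Psmb9, Canx, H2-M2, H2-T10 and H2-T22), and none has an adjusted p under 0.05.

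Among the 8 proteasome genes, the estimates of 4 lay above and 4 below 0 (median -0.01), and both genes at an unadjusted p under 0.05 encode immunoproteasome subunits. Psmb9 was lower in ErbB4myeKO in 6 of 6 litters, by -0.20 ± 0.18 (SD, n = 6; exact two-sided permutation p = 0.0312, the smallest possible; limma adjusted p = 0.603). In litter 1 the littermates were almost equal (97.6 and 97.7 TPM), and in litter 6 they were furthest apart (79.3 and 108 TPM). Psmb8 was lower in 5 of 6 litters, by -0.22 ± 0.16 (SD, n = 6; limma adjusted p = 0.603), with litter 5 the exception. Psmb6, a constitutive subunit and the most abundant of the list, was at -0.05 ± 0.26 (SD, n = 6). The transcript of Tap1 shared 6.23% of its 31-base words with Psmb9 transcripts.

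The 6 genes of folding in the endoplasmic reticulum all had estimates above 0 (median 0.11). Canx, the lectin chaperone calnexin that holds new heavy chains, was higher in 5 of 6 litters by 0.16 ± 0.14 (SD, n = 6; 95% interval 0.01 to 0.31; limma adjusted p = 0.603). Hspa5, the most abundant of the list, was at 0.07 ± 0.21 (SD, n = 6).

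Of 19 other class I and class I-like genes 11 reached the minimum level, and estimates of 8 lay below and 3 above 0 (median -0.10). H2-T22, a non-classical gene whose product is bound by some γδ T cells and the most abundant of the list, was at 121 to 376 TPM in ErbB4myeKO and at 136 to 379 TPM in ErbB4FF. It was lower in 5 of 6 litters by -0.43 ± 0.41 (SD, n = 6; limma adjusted p = 0.603), litter 5 being the exception. Its neighbour in sequence H2-T10 was at -1.19 ± 1.34 (SD, n = 6; limma adjusted p = 0.603), also lower in 5 of 6 litters, at levels from 0 to 18.5 TPM. The H2-T10 transcript shared 56.6% of its words with H2-T22 and 61.5% with other genes in all, so reads of the pair cannot be cleanly separated. H2-M2, with 2.52% of its words shared, was higher in ErbB4myeKO in 5 of 6 litters by 0.90 ± 0.84 (SD, n = 6; limma adjusted p = 0.603), and litter 3 was the exception. Its levels ran from 10.2 to 69.1 TPM in ErbB4myeKO and from 6.37 to 50.9 TPM in ErbB4FF, so the groups overlapped.

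Of 9 regulators of class I transcription 8 were tested, with none at an unadjusted p under 0.05 in either direction (median -0.03). Irf1, an interferon-induced activator of class I genes, was at -0.05 ± 0.13 (SD, n = 6), and Irf8, the most abundant of the list, was at 0.02 ± 0.21 (SD, n = 6). Among 9 genes of cytosolic trimming and vesicle traffic 8 were tested, 4 with estimates above and 4 below 0 (median -0.0045) and none at an unadjusted p under 0.05. Bcap31, its most abundant gene, was at 0.00 ± 0.10 (SD, n = 6).

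The genes whose profile over the 12 libraries was most like the mean profile of the 10 class I genes were Man2b1 (r = 0.970), Rnf4 (0.965), Dync1h1 (0.960), Socs7 (0.952) and Irf2 (0.950). These correlations are a description over libraries that share litters, and the shared profile is low in litters 5 and 6.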

How the data were processed

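Bone-marrow macrophage RNA was sequenced as single-end 75 bp reads from an Illumina stranded mRNA kit. Per the labels and methods, the authors quantified transcripts with kallisto (mm10) and deposited TPM values for principal transcripts, with no counts, so the depth of each library and counting intervals cannot be derived from the table. The p-value and q-value columns the authors deposited from sleuth, adjusted for litter and sex, were not used. The deposited table held 29213 lines. Here 405 repeated lines were dropped, leaving 28808 transcripts, TPM was summed per gene and analysed as log2(TPM + 0.5), a scale that understates changes of low genes, and genes whose mean reached 1 TPM were kept. Group was taken from the labels, and litter was inferred from the number in the sample title.

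Genotype was tested with limma 3.58.1 in R 4.3.3 (lmFit, eBayes with trend, litter as block), with Benjamini-Hochberg adjustment over all 8780 genes, and by an exact two-sided permutation test that swapped genotype within litters in all 64 ways (smallest p 0.0312). The code was tested on simulated data. Per the study, the mice were littermates from 6 litters, and same-numbered mice, which share a batch letter in the labels, were taken as littermates. Their deviations from the group means correlated in every litter (r = 0.273 to 0.774 over all genes). With deviations from the mean of all libraries, r was 0.0955 to 0.762. Mice of different numbers were not compared, and same-numbered mice also share the batch letter, so these values do not settle which mice were littermates. Sex was not tested. An alternative covariate from Y-linked genes differed by more than 2 log2 units between littermates in 0 of 6 litters, so beside the litter block it carries no clear contrast of sex. Variance shares are sums of squares. Shared sequence was counted as 31-base words among GENCODE M21 transcripts.

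The members, the 5 pathway lists (proteasome, folding, other class I, regulators, trimming and traffic) and the marker lists (macrophage, neutrophil, dendritic cell, lymphocyte, erythroid, stromal) were chosen with earlier results of these data known, and the promoter motifs after the sequences were seen (GAAANNGAAA last). Genes named outside the 10 were those of the 5 pathway lists at an unadjusted p under 0.05 or with the highest level of their list, Irf1, Erbb4 and the 5 of most similar profile. Fcgr1, Camp, Xcr1 and the other markers were named after their values were seen. One gene that the rule names is not reported here. Ero1a is listed as Ero1l in the table. Alternatives were no block, pseudocounts of 0.1 and 1, other minimum levels, median-ratio scaling, no trend, a Y-linked covariate, the most abundant transcript alone, and leaving out each litter.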

Additional observations from a re-analysis of the deposited data

How the results depend on the processing

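No alternative gave any of the 10 genes an adjusted p under 0.05 (smallest 0.5005, in limma without litter 5). Of 150 recomputed ratios of the 10 genes 146 kept their sign. Those that turned were all near 0: without litter 3, Tap1 went to 0.00122 (all litters -0.07), Tap2 to 0.0227 and Tapbpl to 0.00601, and without litter 5, Nlrc5 went to -0.0247. Leaving out each litter, Tap1 lay between -0.121 and 0.00122, Tap2 between -0.130 and 0.0227, Tapbpl between -0.142 and 0.00601, and Nlrc5 between -0.0247 and 0.0998. The other ranges were -0.06 to -0.01 for B2m, -0.17 to -0.05 for H2-K1, -0.17 to -0.04 for H2-D1, -0.23 to -0.08 for H2-T23, -0.15 to -0.07 for Tapbp and 0.08 to 0.14 for Erap1. Nlrc5 was at 0.18, against 0.05, with its most abundant transcript alone. Over the same fits the median log2 ratio of the 10 genes ranged from -0.14 (without litter 5) to -0.02 (without litter 3) around -0.06, and 0 to 2 of them passed at unadjusted p of 0.05, the 2 being H2-K1 and H2-T23 without litter 5. The count of neighbours in the same order of level in every litter was 7 to 8. With no replicate block, which ignores the pairing of littermates, the number with an unadjusted p under 0.05 was 0 for the 10 genes, as with the block, and for the pathway genes outside them it was 0 in place of 6. Without each litter the latter count was 4 to 9, and it was 3 with the Y-linked covariate, which holds no clear contrast of sex within litters, and 4 without the trend, alternatives added after seeing the data. The cause of these shifts was not tested. TPM values carry no depth, so the counting error of low genes such as Tap2 is unknown, and with 6 litters a permutation p cannot fall below 0.0312.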
